A study of Homo sapiens with 12 samples.

Results

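The mRNAs of 10 transcription factors that act in the formation of adipocytes were followed in human adipocytes with and without knockdown (KD) of linc-ADAIN, a long intergenic noncoding RNA of adipose tissue. They were the nuclear receptors PPARG, RXRA and NR1H3, the C/EBP factors CEBPA, CEBPB and CEBPD, the early B cell factors EBF1 and EBF2, the zinc finger protein ZNF423 and the GATA factor GATA2. The members were chosen by gene symbol from a gene table of 28901 named genes, and all 10 had a row and passed the filter on low counts in every comparison. The cells were ASC52telo, adipose stromal cells immortalized with hTERT, so that all libraries come from 1 line. They carried scramble shRNA or linc-ADAIN shRNA from a lentivirus before differentiation and were sorted for the fluorescent protein of the vector. All 4 groups were differentiated with insulin, dexamethasone, IBMX and rosiglitazone, an agonist of PPARγ, then kept in insulin and dexamethasone, and were taken at day 14. One group for each shRNA received LPS, a bacterial endotoxin, at 100 ng/mL for 4 h, and the other did not, with 3 libraries per group. The libraries come from 1 experiment in triplicate, so that p-values measure the spread between libraries of that experiment. The RNA targeted by the shRNA, linc-ADAIN, was not analysed here, so the KD was not checked in these libraries.

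Adipocyte formation runs as a cascade of transcription factors. CEBPB and CEBPD are induced early by hormonal signals and help to switch on PPARG and CEBPA, which then sustain each other and the genes of lipid storage. PPARγ binds DNA together with RXRα, and the product of NR1H3, LXRα, is a sterol sensor that also pairs with RXRα. ZNF423 and EBF2 act in the commitment of precursors, EBF1 promotes differentiation, and GATA2 restrains it in preadipocytes. In other settings CEBPB and CEBPD are known as factors of the acute phase response to inflammatory signals.

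Counts on named genes totalled 28.4 to 53.8 M per library, where M is 1e6. Values per library are CPM, counts per 1e6 after scaling by edgeR's TMM method. The tests are edgeR's quasi-likelihood F tests on 3 libraries against 3, with p-values adjusted over all genes tested, and a gene was called at an adjusted p under 0.05. Adipocyte markers were abundant in scramble control, with FABP4 at 1762 to 2265 CPM and ADIPOQ at 729 to 1141 CPM, while LPL, LEP and SLC2A4 had at most 23 counts in any scramble library. The sum of 8 adipocyte markers was 3242 to 4485 CPM in scramble control and 1908, 1429 and 634 CPM in the 3 KD libraries, so that KD replicate 3 stood apart at the low end. With LPS this sum was 3760 to 4380 CPM in scramble control and 1214, 835 and 507 CPM in KD. In bulk samples, fewer cells of a type and less RNA per cell cannot be told apart. All 6 genes chosen to check the LPS response rose with LPS under either shRNA.

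The promoter sequences of the members were read from RefSeq (GRCh38.p14), in windows from 250 bases before to 50 bases after each annotated start. The table held 20 windows for 8 of the members. The C/EBP letters TTNNGCAA, searched on both strands, were found in 3 of these windows, 1 each of PPARG, RXRA and NR1H3, against 10.5% of all 35116 windows. The 3 matches are shown as the member windows that hold these letters, and 12 of the 20 windows belong to these 3 genes. Capitals mark the matched letters, and all sequences are on the plus strand, the strand of each gene.
PPARG, chr3:12351167-12351416: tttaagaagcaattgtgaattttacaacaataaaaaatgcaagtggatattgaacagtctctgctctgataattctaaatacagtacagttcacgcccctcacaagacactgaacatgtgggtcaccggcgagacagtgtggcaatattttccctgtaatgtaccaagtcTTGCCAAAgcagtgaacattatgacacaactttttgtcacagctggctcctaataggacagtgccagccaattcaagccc
RXRA, chr9:134326464-134326493: tgttgggcgacTTTTGCAAcaactcgccgc
NR1H3, chr11:47257698-47257727: ggaggcagtccTTTTGCAAgagctgctaag
The PPARG sequence is the 250 bases before the start at 12351417, which lies 55 bases before the start of the GENCODE transcript PPARG-201, whose coding sequence holds 505 codons. The match there is on the minus strand and its first base is at -80 from the start. In RXRA and NR1H3 the first matched base lies 20 and 2 bases after the start, and 30 bases are shown around each. The other letters searched were the NF-kB letters GGNNTTTCC, in 1 window each of RXRA and NR1H3 (6.26% of all windows), and AGATAA of GATA factors, in 1 window of PPARG (10.3%). TATAAA of the TATA box was in 2 windows of PPARG, which overlap, and in 1 window each of CEBPA and CEBPB (11.5%). TGACGTCA of CRE (1.85%) and CCACACCC of KLF factors (3.28%) were in 0 of the 20 windows. A match is a description of the letters and not a site of binding.

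**Figure D1:**
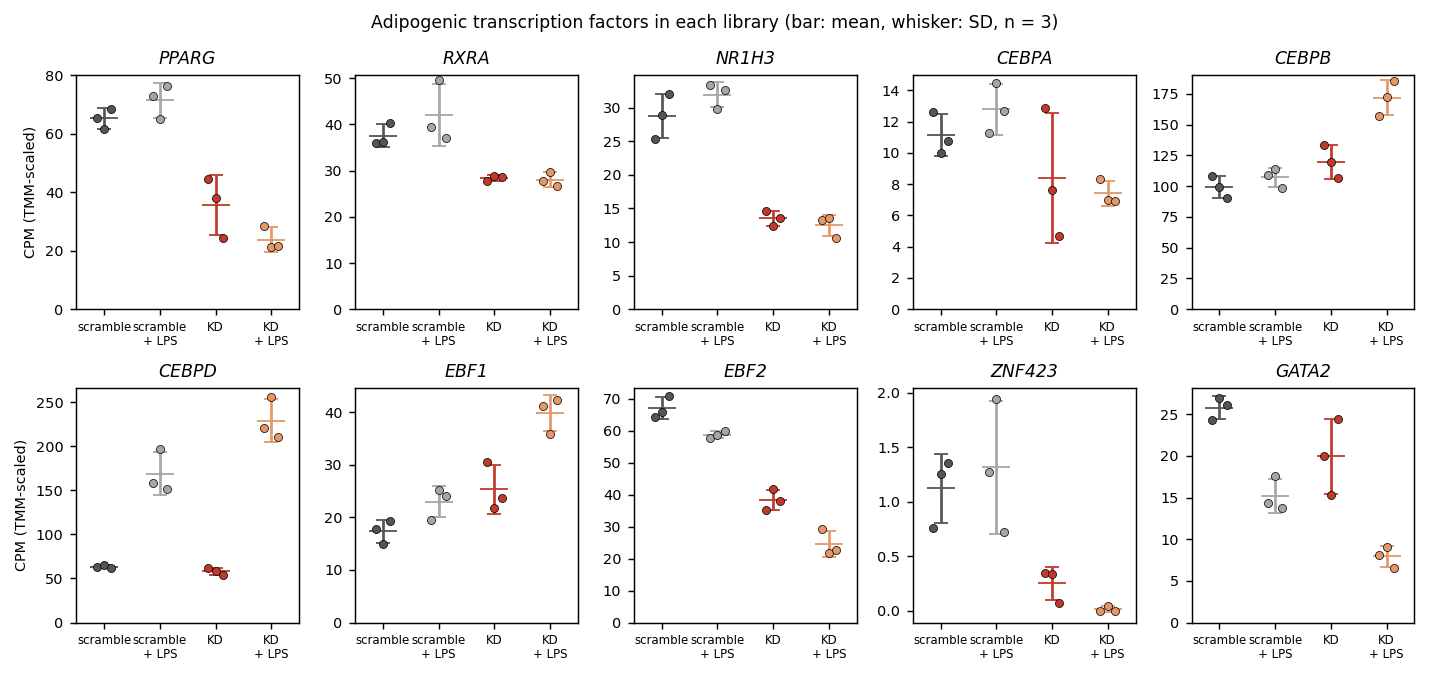
CPM of each of the 10 transcription factors (vertical axis, from 0) in scramble control and KD without and with LPS. Points are libraries, bars the mean and whiskers the SD of 3 libraries. In PPARG, RXRA, NR1H3 and EBF2 every KD library lies below every scramble library at the same LPS condition, and in EBF1 every KD library lies above.

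All 3 nuclear receptors were lower in KD than in scramble control, both without and with LPS. For cultured KD adipocytes at day 14, the paper instead reports higher PPARγ, as mRNA by qPCR and as protein by western blot. It reports the same of FABP4 and adiponectin, whose mRNAs were lower in KD here. The paper also reports higher C/EBPα in KD, while CEBPA here was not called without LPS and was lower in KD with LPS. The reason for these differences was not tested. In KD adipocytes implanted into mice, the paper reports lower mRNA of PPARγ and C/EBPα than in control explants. PPARG lies on chromosome 3 of GRCh38 from 12287368 to 12434356. PPARG mRNA was at 65.4, 61.7 and 68.6 CPM in the scramble libraries and at 44.6, 37.9 and 24.4 CPM in KD. No KD library reached the lowest scramble library, and the KD libraries were spread more widely, with an SD of 10.3 against 3.47 CPM. The log2 fold change was -0.87 (SE 0.17, adjusted p = 0.0023, edgeR). With LPS, PPARG was at 73.0, 64.9 and 76.4 CPM in scramble control and at 28.6, 21.4 and 21.5 CPM in KD, a log2 fold change of -1.59 (SE 0.12, adjusted p = 5.0e-07). The level with LPS was thus 3.00-fold lower in KD, and 1.83-fold lower without LPS. The counts are sums over the transcripts of a gene, so that the isoforms PPARγ1 and PPARγ2 are not separated. PPARG and the adipocyte markers had the same order over the 3 KD libraries without LPS. With LPS, the marker sums of KD replicates 2 and 3 were 835 and 507 CPM, while PPARG was at 21.4 and 21.5 CPM. The part of marker content in the PPARG difference was not tested. Without KD replicate 3, the log2 fold change of PPARG was -0.66 (adjusted p = 0.00089).

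NR1H3, the gene of LXRα on chromosome 11 from 47248300 to 47269033, was 2.12-fold lower in KD without LPS and 2.56-fold lower with LPS. It was at 25.4, 28.8 and 32.0 CPM in scramble control and at 14.7, 12.4 and 13.6 CPM in KD (log2 fold change -1.08, SE 0.12, adjusted p = 3.9e-05, edgeR). The groups did not overlap, and the KD libraries differed little among themselves. With LPS, NR1H3 was at 33.3, 29.8 and 32.6 CPM in scramble control and at 13.2, 13.5 and 10.7 CPM in KD (log2 fold change -1.35, SE 0.13, adjusted p = 2.8e-06). Without KD replicate 3 the value without LPS was -1.08, as with it.

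RXRA, the gene of RXRα on chromosome 9 from 134317098 to 134440585, changed least of the 3. Its level was 36.0, 36.2 and 40.4 CPM in scramble control and 27.7, 28.7 and 28.6 CPM in KD, again with no overlap. The log2 fold change was -0.40 (SE 0.090, adjusted p = 0.0060, edgeR). With LPS it was at 39.5, 49.6 and 37.0 CPM in scramble control and at 27.8, 29.7 and 26.6 CPM in KD (log2 fold change -0.58, SE 0.12, adjusted p = 0.0023).

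The 3 C/EBP mRNAs did not pass the test without LPS and went in different directions with LPS, CEBPB and CEBPD higher and CEBPA lower in KD. CEBPA, on chromosome 19 from 33299934 to 33302534 as a single exon, was at 12.6, 10.004 and 10.8 CPM in scramble control. In KD it was at 12.9, 7.61 and 4.72 CPM, so that KD replicate 1 was above every scramble library and the others were below. Its log2 fold change of -0.41 (SE 0.28, adjusted p = 0.32, edgeR) was within this spread, and was -0.85 (adjusted p = 0.018) without KD replicate 1 and -0.12 (adjusted p = 0.73) without KD replicate 3. The order of the KD libraries was again that of their adipocyte marker sums, whose part was not tested. CEBPB and CEBPD, which were not lower by the test, had this same order over the KD libraries without LPS. With LPS, CEBPA was at 11.2, 14.5 and 12.7 CPM in scramble control and at 8.32, 6.99 and 6.92 CPM in KD, a log2 fold change of -0.79 (SE 0.16, adjusted p = 0.0027).

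CEBPB, a single exon on chromosome 20 from 50190830 to 50192668, was the opposite case. Without LPS it was at 108, 99.1 and 89.999 CPM in scramble control and at 133, 119.5 and 106 CPM in KD. One KD library lay within the scramble range, and the log2 fold change was 0.28 (SE 0.099, adjusted p = 0.056, edgeR). Its call depended on the fit, and it was called in 8 of 13 alternative runs. The adjusted p was 0.013 under library size only and 0.026 in DESeq2. In edgeR's test it was 0.042 without scramble replicate 1 (log2 fold change 0.34) and 0.020 without KD replicate 3 (0.36). With LPS the groups separated, with 109, 114 and 98.8 CPM in scramble control and 157, 173 and 185 CPM in KD (log2 fold change 0.68, SE 0.087, adjusted p = 5.5e-05).

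CEBPD, on chromosome 8, was at 63.3, 65.5 and 61.5 CPM in scramble control and at 62.2, 58.1 and 53.7 CPM in KD. The groups overlapped, and the log2 fold change was -0.12 (SE 0.082, adjusted p = 0.30, edgeR). With LPS it was at 158, 197 and 151 CPM in scramble control and at 221, 256 and 210.0 CPM in KD. Every KD library was then above every scramble library, with a log2 fold change of 0.44 (SE 0.11, adjusted p = 0.0070). This call was lost without KD_LPS replicate 2, the library with the highest CEBPD level, where the log2 fold change was 0.34 (adjusted p = 0.0505).

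The EBF genes moved in opposite directions, EBF1 up and EBF2 down in KD, and ZNF423 mRNA was nearly lost in KD with LPS. EBF1, on chromosome 5 from 158695920 to 159099916, was at 17.8, 14.9 and 19.3 CPM in scramble control and at 30.5, 21.7 and 23.8 CPM in KD. The groups were separate, with a log2 fold change of 0.55 (SE 0.15, adjusted p = 0.014, edgeR). The call of EBF1 without LPS was lost without scramble replicate 2 (0.45, adjusted p = 0.072) and without KD replicate 1 (0.39, adjusted p = 0.060). With LPS, EBF1 was at 19.6, 25.2 and 24.2 CPM in scramble control and at 41.2, 35.9 and 42.3 CPM in KD (log2 fold change 0.79, SE 0.12, adjusted p = 0.00022). EBF2, on chromosome 8, fell from 64.2, 65.9 and 70.8 CPM in scramble control to 35.3, 41.7 and 37.9 CPM in KD. The log2 fold change was -0.80 (SE 0.089, adjusted p = 3.8e-05). With LPS it was at 57.7, 58.5 and 59.9 CPM in scramble control and at 29.1, 21.6 and 22.7 CPM in KD, a 2.40-fold difference (log2 fold change -1.26, SE 0.12, adjusted p = 2.7e-06).

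ZNF423, on chromosome 16 from 49487524 to 49857919, was the least abundant member. It had 40, 66 and 63 counts in scramble control and 12, 18 and 3 counts in KD, a log2 fold change of -2.14 (SE 0.67, adjusted p = 0.032, edgeR). This call was lost without scramble replicate 2 (adjusted p = 0.12), scramble replicate 3 (adjusted p = 0.11) or KD replicate 3 (adjusted p = 0.065), with log2 fold changes of -2.05, -1.996 and -1.71, and with a replicate block (-2.25, adjusted p = 0.066). With LPS the counts were 50, 59 and 31 in scramble control and 0, 2 and 0 in KD. Over the group this was 140 against 2 counts, a ratio of 68.9 after scaling, with a 95% exact interval of 18.7 to 574 that covers counting error only. The adjusted p of this difference was 0.00080 in edgeR's test.

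GATA2, on chromosome 3 from 128479427 to 128493201, was at 24.3, 26.9 and 26.1 CPM in scramble control and at 19.993, 15.4 and 24.4 CPM in KD. KD replicate 3 reached the scramble range and the log2 fold change of -0.37 (SE 0.15) did not pass the test (adjusted p = 0.089, edgeR). Without KD replicate 3 it was -0.54 (adjusted p = 0.014). With LPS, GATA2 was at 14.3, 17.6 and 13.7 CPM in scramble control and at 8.09, 9.12 and 6.57 CPM in KD, with no overlap and a log2 fold change of -0.93 (SE 0.17, adjusted p = 0.00086).

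In counts, 6 of the 10 factors were called in KD without LPS. EBF1 was higher, where 12.1% of all 16217 genes tested were called higher, and 5 were lower (PPARG, RXRA, NR1H3, EBF2 and ZNF423), where 15.1% of all genes were. At 2-fold or more, 2 were called (NR1H3 and ZNF423), against 7.77% of all genes. With LPS all 10 were called. CEBPB, CEBPD and EBF1 were higher, against 12.7% of 15981 genes, and 7 were lower, against 14.2%. At 2-fold or more there were 4 (PPARG, NR1H3, EBF2 and ZNF423), against 8.48%. The median log2 fold change of the 10 was -0.40 without LPS and -0.86 with LPS, and that of all genes was 0.024 and 0.025. The shares of all genes given here are those of the full fits. Without KD replicate 3, the calls of CEBPB and GATA2 without LPS were gained and that of ZNF423 was lost. Without scramble replicate 2, the calls of EBF1 and ZNF423 were lost. Scaling by library size only moved the median of all genes without LPS by 0.10. Each of the 10 factors kept its direction in both KD comparisons with that scaling, which also changed the split of all called genes from 1965 higher and 2446 lower to 2793 and 1757 without LPS, and from 2026 and 2266 to 2609 and 1796 with LPS.

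**Figure D2:**
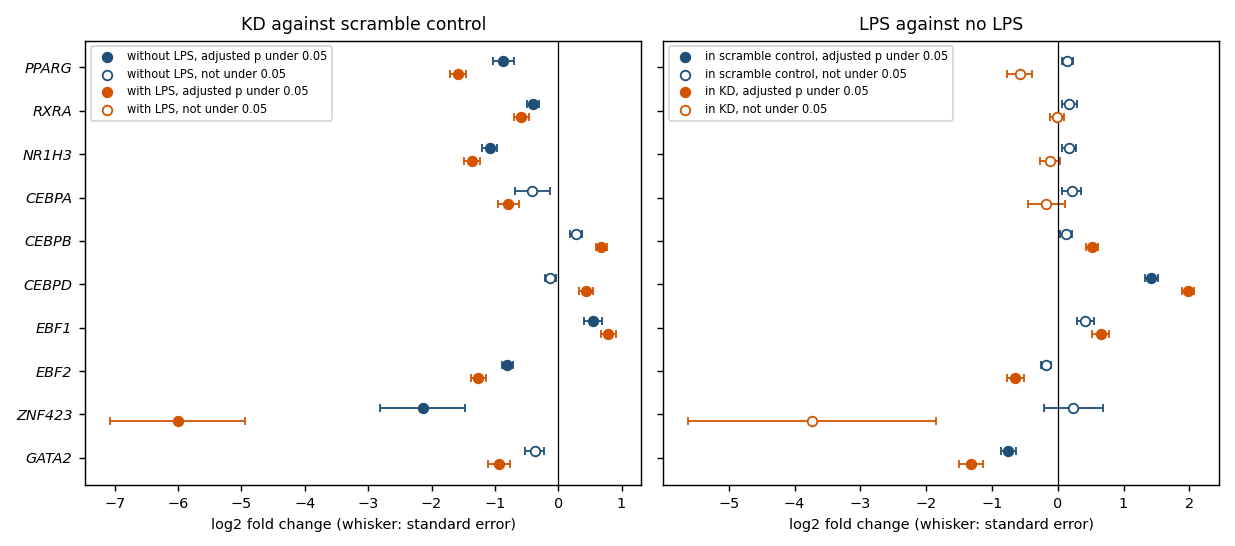
Log2 fold changes (horizontal axis) of the 10 transcription factors in KD against scramble control, without and with LPS, and with LPS against no LPS, in scramble control and in KD. Whiskers are standard errors, and filled points have an adjusted p under 0.05. In KD against scramble control, 6 points are filled without LPS and 10 with LPS, and the value of ZNF423 with LPS rests on 2 counts in KD.

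LPS for 4 h changed CEBPD and GATA2 in both kinds of cells. In scramble control, CEBPD rose from 63.3, 65.5 and 61.5 to 158, 197 and 151 CPM, a 2.68-fold rise (log2 fold change 1.42, SE 0.099, adjusted p = 3.0e-06, edgeR). In KD it rose from 62.2, 58.1 and 53.7 to 221, 256 and 210.0 CPM, a 3.95-fold rise (log2 fold change 1.98, SE 0.093, adjusted p = 2.2e-09). The log2 fold change of GATA2, which fell, was -0.75 in scramble control (SE 0.12, adjusted p = 0.0011) and -1.32 in KD (SE 0.18, adjusted p = 0.00021). In both shRNAs the libraries with and without LPS did not overlap for either gene.

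CEBPB, EBF1 and EBF2 passed the test for LPS in KD and did not in scramble control. The difference between their LPS values in KD and in scramble control was not called for any of them in edgeR's interaction test, given below. CEBPB rose in KD by 0.52 on the log2 scale (SE 0.095, adjusted p = 0.0019, edgeR), and its value in scramble control was 0.13 (SE 0.087, adjusted p = 0.39). EBF1 rose in KD by 0.65 (SE 0.13, adjusted p = 0.0042). In scramble control its log2 fold change was 0.42 (SE 0.13, adjusted p = 0.054), with each LPS library above each library without LPS, and it passed without scramble replicate 3 (0.51, adjusted p = 0.049) or scramble_LPS replicate 1 (0.52, adjusted p = 0.021). Without the third libraries of both KD groups, EBF1 was at 0.56 in KD (adjusted p = 0.057). EBF2 fell in KD with a value of -0.65 (SE 0.13, adjusted p = 0.0036). Its value in scramble control was -0.18 (SE 0.076, adjusted p = 0.15), with each LPS library below each library without LPS.

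The nuclear receptors and CEBPA were not called with LPS in either shRNA. PPARG had a log2 fold change of 0.15 (SE 0.086, adjusted p = 0.31, edgeR) in scramble control and of -0.58 (SE 0.19, adjusted p = 0.060) in KD. The PPARG value in KD was called in 8 of 14 alternative runs. It became -0.80 (adjusted p = 0.0025) without KD replicate 3 and -0.73 (adjusted p = 0.032) without KD_LPS replicate 1, and DESeq2 gave an adjusted p of 0.018. The values of RXRA were 0.18 and -0.017 (adjusted p = 0.36 and 0.95), and those of NR1H3 were 0.17 and -0.12 (adjusted p = 0.35 and 0.72). For CEBPA they were 0.21 and -0.18 (adjusted p = 0.39 and 0.79). ZNF423 had a value of 0.24 in scramble control (adjusted p = 0.80), and in KD its counts went from 33 over the group to 2, a ratio of 14.1 (95% exact interval 3.61 to 121, counting error only) with an adjusted p of 0.27. Fitted with all 12 libraries, this change of ZNF423 in KD was called (adjusted p = 0.021, edgeR).

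In scramble control, 1 of the 10 factors was thus called higher with LPS, where 5.9% of 15920 genes were, and 1 lower, where 8.38% were. CEBPD was the 1 called at 2-fold or more, against 2.68% of all genes. In KD, 3 were called higher, against 5.32% of 16169 genes, and 2 lower, against 6.03%, and CEBPD and GATA2 were called at 2-fold or more, against 2.25%. Scaling by library size only changed the split of all genes called with LPS in KD from 860 higher and 975 lower to 667 and 1227. The LPS comparisons share their libraries with the KD comparisons, and the values of each are given side by side for that reason.

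The difference between the KD effects with and without LPS, tested as an interaction over 12 libraries, was called for 0 of the 10 factors in edgeR's test. Of 17173 genes tested, 0.943% were called as more positive in the presence of LPS and 0.332% as more negative. CEBPD had an interaction of 0.57 on the log2 scale (SE 0.14, adjusted p = 0.057), and CEBPB one of 0.40 (SE 0.14, adjusted p = 0.20). That of EBF1 was 0.25 (SE 0.20, adjusted p = 0.72). PPARG had -0.71 (SE 0.23, adjusted p = 0.17), EBF2 -0.46 (SE 0.15, adjusted p = 0.17) and GATA2 -0.56 (SE 0.23, adjusted p = 0.35). ZNF423 had -3.88 (SE 1.21, adjusted p = 0.16), a value that rests on the 2 counts in KD with LPS. DESeq2 called 1 of the factors, CEBPD (adjusted p = 0.0080). Without KD replicate 3 the interaction of PPARG was -0.94 (adjusted p = 0.0089, edgeR), without scramble_LPS replicate 2 that of CEBPD was 0.69 (adjusted p = 0.012), and without KD_LPS replicate 1 that of EBF2 was -0.62 (adjusted p = 0.030). Without the filter on low counts PPARG (adjusted p = 0.023) and CEBPD (adjusted p = 0.012) were called by edgeR, and with a replicate block CEBPD (adjusted p = 0.021).

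Levels of different genes were compared per length. Counts were divided by the length of the representative GENCODE transcript and scaled to 1e6 in each library over the 28647 genes with a length. In scramble control CEBPB was highest at 111 ± 11.7 (SD, n = 3 libraries here and below), followed by CEBPD at 105 ± 5.85, and the libraries of these genes overlapped. PPARG followed at 75.8 ± 2.17, then NR1H3 at 32.0 ± 3.31, EBF2 at 26.7 ± 0.966, GATA2 at 15.7 ± 0.995, RXRA at 14.0 ± 0.631, CEBPA at 8.83 ± 1.04 and EBF1 at 6.60 ± 0.709. None of these neighbors overlapped. ZNF423 was last at 0.290 ± 0.081.

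In KD with LPS the order had changed. CEBPD was first at 357 ± 41.8 and CEBPB next at 182 ± 14.4, and PPARG followed at 26.2 ± 4.52. EBF1 stood next at 14.4 ± 1.07, where its libraries overlapped those of NR1H3 at 13.1 ± 1.79. EBF2, at 9.24 ± 1.51, overlapped RXRA at 9.88 ± 0.684, and CEBPA at 5.56 ± 0.586 overlapped GATA2 at 4.58 ± 0.791. In KD without LPS, the genes from EBF2 at 15.4 ± 1.87 to CEBPA at 6.64 ± 3.03 each overlapped the next in the order, which was EBF2, NR1H3, GATA2, RXRA, EBF1 and CEBPA. EBF2 was above EBF1 in every scramble library per length, and EBF1 was above EBF2 in every KD library with LPS. In scramble control with LPS, CEBPD led at 257 ± 36.8, ahead of CEBPB at 111 ± 6.53 and PPARG at 76.7 ± 7.13, and GATA2, at 8.56 ± 1.15, overlapped CEBPA at 9.38 ± 1.28 and EBF1 at 8.10 ± 1.17. The place of PPARG and of some other factors depended on the transcript used. PPARG-217 has 1774 bases and the longest PPARG transcript has 4527. With the longest transcripts, PPARG was at 36.1 in scramble control, still next after CEBPD, and at 12.4 in KD with LPS, below EBF1. In scramble control EBF2 was then at 32.5, above NR1H3 at 26.4 without overlap, and GATA2 and RXRA overlapped. NR1H3 in KD with LPS was then at 10.8, below EBF2 at 11.2, with overlap.

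**Figure D3:**
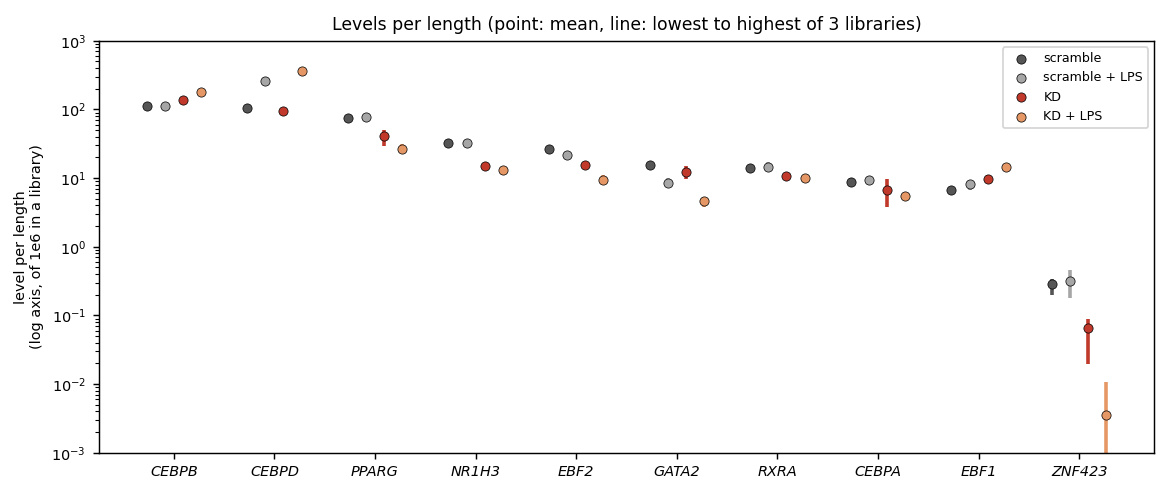
Level per length (log axis) of the 10 transcription factors in the 4 groups, ordered by scramble control. Points are means and lines run from the lowest to the highest of 3 libraries, cut at the bottom of the axis for ZNF423 in KD with LPS, where 2 libraries had 0 counts. CEBPD rises above CEBPB in both LPS groups, and EBF1 rises where EBF2 falls.

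The balance between CEBPB and CEBPA was examined as the log2 ratio of their levels per length. It was 3.60, 3.81 and 3.56 in scramble control, and 3.87, 4.47 and 4.99 in KD. Each KD library was above each scramble library, and the difference was 0.79 on the log2 scale, or 1.73-fold (means 4.45 ± 0.56 and 3.66 ± 0.13, SD, n = 3, exact two-sided permutation test p = 0.1, adjusted p = 0.2 over 4 comparisons). With LPS the ratio was 3.78, 3.47 and 3.46 in scramble control and 4.74, 5.13 and 5.24 in KD, a difference of 1.46, or 2.76-fold, again with p = 0.1 and adjusted p = 0.2 in the exact permutation test. With 3 libraries against 3, 0.1 is the smallest p this test can give. In KD the order of the libraries by this ratio was the reverse of that by adipocyte marker sum, both without and with LPS. The part of marker content in the ratio was not tested. The ratio differed by -0.083 with LPS in scramble control (exact permutation p = 0.5, adjusted p = 0.5) and by 0.59 in KD (exact permutation p = 0.2, adjusted p = 0.27), where the libraries overlapped.

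Of the summed level per length of the 3 C/EBP mRNAs, CEBPA held 3.496% to 4.25% in scramble control, 1.77% to 3.89% in KD, 2.27% to 2.71% in scramble control with LPS and 0.893% to 1.21% in KD with LPS. CEBPD held 44.3% to 48.1% in scramble control and 39.1% to 41.9% in KD. With LPS it held 66.5% to 70.0% in scramble control and 61.8% to 67.9% in KD. CEBPB held the largest share in each library without LPS except scramble replicate 3, where CEBPD was at 48.1% and CEBPB at 47.9%.

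**Figure D4:**
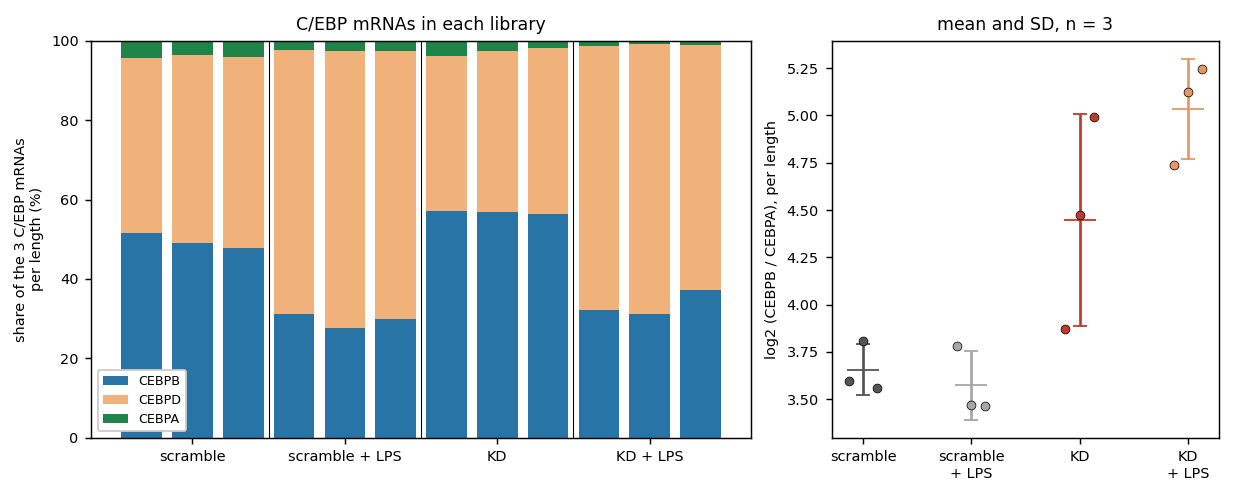
Left, share (%) of CEBPB, CEBPD and CEBPA in the summed level per length of these 3 mRNAs, 1 bar per library. Right, log2 ratio of CEBPB to CEBPA per length, with points for libraries, bars for the mean and whiskers for the SD. The ratio is 3.46 to 3.81 in the 6 scramble libraries and 3.87 to 5.24 in the 6 KD libraries.

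Genes that PPARγ and C/EBPα are known to switch on were mostly lower in KD. Of 18 tested target genes of PPARG and CEBPA, 14 were lower and 0 higher in KD without LPS, with a median log2 fold change of -1.13, and 15 were lower and 0 higher with LPS, with a median of -1.80. Of all genes, 15.1% were lower and 12.1% higher without LPS, and 14.2% and 12.7% with LPS, the shares to set beside each list below. Of the 8 adipocyte markers, whose sum was lower in each KD library, 7 are also in this target list, and the part of marker content in its count was not tested. Without KD replicate 3 the list had 13 lower and 0 higher (median -0.84), and with LPS, without KD_LPS replicate 3, 14 and 0 (median -1.59). PDK4, a kinase that inhibits pyruvate dehydrogenase, had values of -1.72 and -2.51 (adjusted p = 0.0022 and 1.1e-07, edgeR), and AQP7, a glycerol channel, had -1.72 and -2.38 (adjusted p = 0.00095 and 1.8e-06). The 4 not called without LPS were LPL, LEP and SLC2A4, which had few counts, and PCK1, which was lower with LPS (adjusted p = 0.023). With LPS itself, ANGPTL4, an inhibitor of lipoprotein lipase, fell in scramble control (-1.03, adjusted p = 6.7e-05) and in KD (-1.20, adjusted p = 9.6e-06), while PDK4 rose in scramble control by 1.12 (adjusted p = 0.00032).

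The LXR target genes followed a like course. In KD without LPS 7 of 10 were lower and 1 was higher (median -0.86), and with LPS 7 were lower and 0 higher (median -1.45), beside 15.1% and 14.2% of all genes called lower. APOE, an apolipoprotein, had log2 fold changes of -1.60 and -1.999 (adjusted p = 1.2e-05 and 2.5e-07, edgeR), and SREBF1, a regulator of lipogenesis, had -1.23 and -1.42 (adjusted p = 2.8e-06 and 2.7e-06). The 1 called higher was ABCA1, a cholesterol exporter, which was higher in KD without LPS by 0.47 (adjusted p = 0.0098). Not called without LPS were SMPDL3A (0.26, adjusted p = 0.16) and ABCG1, which had few counts (-0.69, adjusted p = 0.55). The part of adipocyte marker content in the values of this list was not tested. ABCA1 also rose with LPS in scramble control by 1.83 (adjusted p = 1.2e-06) and in KD by 1.42 (adjusted p = 1.4e-07).

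**Figure D5:**
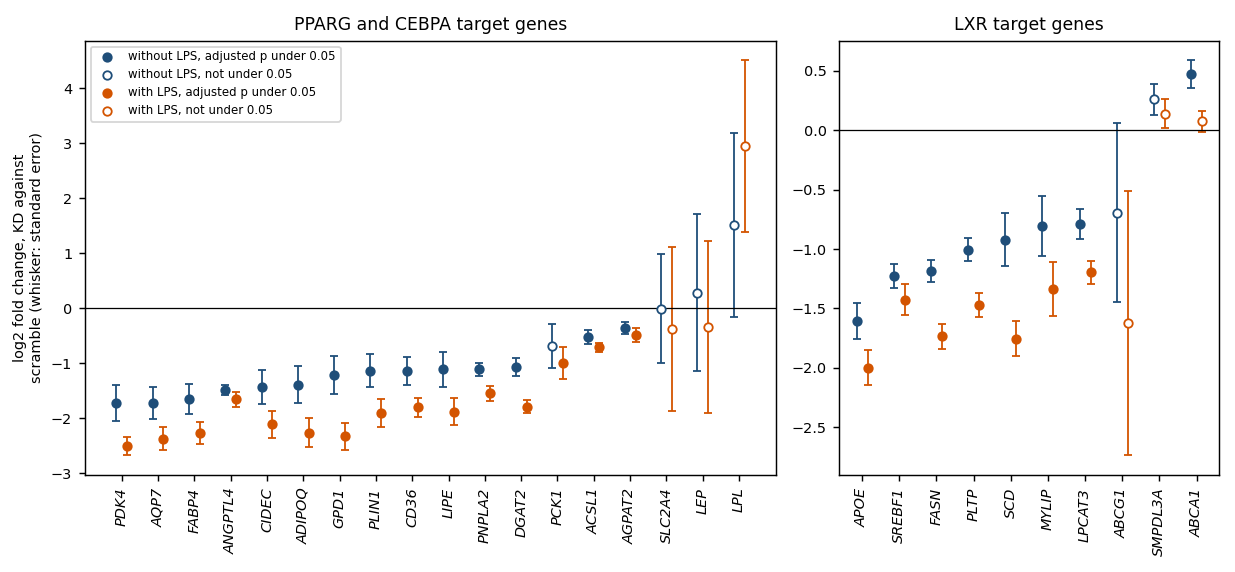
Log2 fold changes (vertical axis) in KD against scramble control of target genes of PPARG and CEBPA and of LXR targets, without and with LPS. Whiskers are standard errors, and filled points have an adjusted p under 0.05. Of the filled points, ABCA1 without LPS lies above 0 and the others lie below.

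Among other factors of the cascade, KLF5, an early activator of PPARG, was higher in KD and with LPS. It was at 0.589 to 0.856 CPM in scramble control, 2.22 to 4.85 CPM in KD, 1.92 to 4.64 CPM in scramble control with LPS and 29.4 to 35.4 CPM in KD with LPS. Its KD effect was 2.33 without LPS (SE 0.36, adjusted p = 0.00050, edgeR) and 3.40 with LPS (SE 0.24, adjusted p = 2.1e-07). Of 14 other adipogenesis-promoting factors tested without LPS, 3 were higher and 5 lower in KD, beside 12.1% and 15.1% of all genes. EGR2 rose by 1.19 (adjusted p = 0.00011), and SREBF1 and KLF4 had values of -1.23 and -1.20 (adjusted p = 2.8e-06 and 8.6e-06). With LPS 4 of 15 were higher and 6 lower, beside 12.7% and 14.2%, with XBP1 higher by 1.13 (adjusted p = 0.00038). Of 11 factors that restrain adipogenesis, 4 were higher and 3 lower in KD, both without and with LPS. DDIT3, also known as CHOP, forms inactive heterodimers with other C/EBP proteins, and rose by 1.78 without LPS (adjusted p = 1.7e-06) and by 1.37 with LPS (adjusted p = 2.1e-06). NR2F2, the nuclear receptor COUP-TFII, had values of -0.94 and -0.97 (adjusted p = 4.6e-06 and 3.8e-06).

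Among relatives and coregulators of the nuclear receptors, 3 of 19 were higher and 6 lower in KD without LPS, and 2 and 6 with LPS. The numbers higher are near the shares of all genes, 12.1% without LPS and 12.7% with LPS. PPARD, which encodes PPARδ, rose by 0.51 and 0.57 (adjusted p = 0.0013 and 0.00043, edgeR). NCOR1, a corepressor, had values of -1.06 and -1.10 (adjusted p = 3.4e-06 and 2.2e-06). Among 6 tested relatives and regulators of C/EBP, 3 were higher and 0 lower without LPS, and 3 and 1 with LPS, with TRIB3, a pseudokinase, higher by 1.60 and 1.80 (adjusted p = 6.8e-06 and 9.6e-06). Of the EBF and GATA relatives and partners, 2 of 7 tested were higher without LPS and 2 of 6 with LPS, with 0 lower. These were GATA6, higher by 1.75 and 1.62 (adjusted p = 4.1e-05 and 0.00068), and ZNF521, a relative of ZNF423 that binds EBF proteins, higher by 0.97 and 0.70 (adjusted p = 0.00030 and 0.0021). With so few genes in either list, their counts are descriptions beside the same shares of all genes. Some genes are counted in several lists. DDIT3 is among the restraining factors and the C/EBP relatives, and ZNF521 and GATA3 are among the restraining factors and the EBF and GATA relatives. SREBF1 is among the promoting factors and the LXR targets.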

How the data were processed

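RNA was sequenced with a stranded mRNA library kit, and the authors pseudoaligned the reads to human transcripts (GRCh38) with kallisto 0.44.0. The deposited values are estimated counts per gene name, whole numbers that are not normalized for depth or length. The release of the annotation and the strand setting are not given in the sources used here, so that reads of a gene and of an antisense or overlapping partner cannot be told apart. The row with no gene name was left out.

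In R 4.3.3, genes summing to 10 or more counts across the libraries compared were scaled by TMM and tested with the quasi-likelihood F test of edgeR 4.0.16, with Benjamini-Hochberg adjustment over all genes. The standard error is the size of the log2 fold change divided by the square root of F. The submitters' notes name DESeq2 1.32.0, and DESeq2 1.42.0 was an alternative here. The 4 group comparisons used 6 libraries each and the interaction all 12. The fits were tested on simulated data. The C/EBP ratio was tested by exact permutation. Lengths and gene positions come from GENCODE 44, and promoters from RefSeq.

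Totals on named genes were 28.4 to 53.8 M (1e6), so that members other than ZNF423 had at least 187 counts in each library. Within groups, log2 CPM correlated at 0.973 to 0.988. The members and lists were chosen with earlier results of these data known. The text names all 10 members, KLF5, and of each list among called genes averaging 50 counts or more, up to 2 that rose most and 2 that fell most in a comparison. Not all of these are printed. In the list of PPARG and CEBPA target genes, 1 gene is not reported here for a reason unrelated to its values, and the numbers called in the list are the same with it.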

Additional observations from a re-analysis of the deposited data

How the results depend on the processing

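Of the 50 log2 fold changes (10 factors in 5 comparisons), 33 changed neither sign nor call in any alternative run (other scalings, DESeq2, other filters, all 12 libraries in 1 fit, a replicate block, and leaving out each library). Those that reversed did so with libraries left out: ZNF423 with LPS in scramble control ranged from -0.15 to 0.53, and CEBPA with LPS in KD from -0.47 to 0.26. RXRA with LPS in KD ranged from -0.058 to 0.017 and was 0.023 without the third libraries of both KD groups, an alternative chosen after seeing the data, and the interaction of CEBPA ranged from -0.68 to 0.060.

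In the interaction, 1 of the 10 factors was called by DESeq2, 2 without the filter on low counts, 1 with a replicate block, 1 without the third KD libraries and 0 to 1 with each library left out. Of all genes, 219 had a called interaction, against 475 by DESeq2, 431 without the filter, 139 without the third KD libraries and 92 (without scramble replicate 2) to 243 with each library left out. The genes called with LPS in scramble control numbered 2274, and 1187 to 2106 with each library left out. With LPS in KD there were 1835, and 1179 without the third KD libraries. The cause of these changes was not tested.

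Same-numbered libraries deviated together with correlations of -0.093 to 0.22, over 0.1 in 4 of 12 pairs. Differently numbered libraries had correlations of -0.16 to 0.16. These ranges overlap, so whether the numbers pair the libraries cannot be decided from them. The replicate block gave 6 called factors without LPS, with ZNF423 not among them, and 10 with LPS in KD. The C/EBP ratio kept its direction in each comparison with each library left out, and raw counts give the same differences by construction. Leaving out the third KD libraries for the target genes was chosen after seeing the data. With the longest transcripts, PPARG levels per length were 36.1 in scramble control, 36.4 with LPS, 19.5 in KD and 12.4 in KD with LPS. ZNF423, at 0 to 18 counts in KD, is limited by depth.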

Other observations

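For each factor with a mean of at least 50 counts, the genes most alike in pattern were sought by Pearson's r of log2 CPM over the 12 libraries, which fall into the same 4 groups, so that the values are descriptions. For PPARG they were ARHGAP6 and FABP5 (r of 0.98 each), for NR1H3 HSD17B4 and DCLK1 (both 0.99) and for RXRA MAP6 and HSPG2 (both 0.96). CEBPD was most like NFKB1, a subunit of NF-κB, and CFB, complement factor B (both 0.99), while CEBPB was most like MANF and C11orf96 (both 0.96). EBF1 was most like POLB and IL1B (0.97 and 0.95), and EBF2 was most like BAG5 and SYNPO (both 0.98). GATA2 was most like RRS1 and PDLIM4 (0.98 and 0.97), and CEBPA was most like ACSF2 and USF3 (both 0.93).

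Markers of other cells also differed between the shRNAs, and their part in the values of the factors was not tested. The counts and sums below are without LPS unless stated, where 12.1% of all genes were called higher in KD and 15.1% lower. Of 7 stromal and preadipocyte markers tested without LPS, 2 were higher and 3 lower in KD, and their sum over 8 genes was 2987 to 3062 CPM in scramble control and 2287 to 2341 CPM in KD, with DLK1 at 0 throughout. Of 5 macrophage and leukocyte markers tested, 1 was higher and 1 lower, and the sum of 8 was 58.2 to 61.9 CPM in scramble control and 89.4 to 119 CPM in KD. CD163 made up most of it in KD, at 55.1 to 82.5 CPM against 3.15 to 5.38 CPM, while AIF1 was at 0 and PTPRC had at most 12 counts in each library. Of 6 endothelial markers tested, 0 were higher and 2 lower (sums 24.1 to 27.5 and 12.2 to 12.6 CPM), and mast cell markers, some of which depend on GATA2 in other cells, summed to at most 3.95 CPM in any library. With LPS, 2 of 7 stromal and preadipocyte markers were higher in KD and 3 lower. Of 6 macrophage and leukocyte markers 2 were then higher and 1 lower, and of 6 endothelial markers 1 was higher and 3 lower. Of all genes, 12.7% were higher and 14.2% lower with LPS.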
